A study of Saccharomyces cerevisiae with 4 samples.

Results

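The genes described here encode the folding machinery of the mitochondrial matrix in Saccharomyces cerevisiae, namely the matrix Hsp70s and their partners, the chaperonin and Hsp78. The 10 members, chosen by gene symbol in the platform annotation, are SSC1, ECM10, SSQ1, MDJ1, JAC1, MGE1, ZIM17, HSP60, HSP10 and HSP78. Each of the 10 was found, with 1 spot per array, among 6051 genes and unnamed spots. RNA abundance was measured on 4 arrays, of which 2 hold RNA of the mutant strain hsf1-R206S/F256S and 2 that of the HSF1 wt strain. The cells of both strains were kept at 39 °C for 15 min, and no unheated sample was analysed here. HSF1 encodes the heat shock transcription factor, and the allele changes 2 amino acids of it. The sources used here give neither the strain background nor how the allele is carried, nor the number of cultures behind the arrays. The tests therefore measure the spread between these arrays, which may be technical.

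Most mitochondrial proteins are made in the cytosol, and those bound for the matrix cross both membranes unfolded. In the matrix the Hsp70 Ssc1 binds the incoming chain, as part of the import motor and as a folding chaperone. A J-protein stimulates its ATPase and a nucleotide exchange factor releases its ADP. The Hsp60 ring with its lid Hsp10 encloses proteins for folding, and the AAA+ protein Hsp78 pulls aggregated ones apart. A separate Hsp70 pair, Ssq1 and Jac1, serves the transfer of iron-sulfur clusters. In yeast, several of these genes, among them SSC1, MDJ1, HSP78, HSP60 and HSP10, are known to carry binding sites for Hsf1.

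Some matrix chaperone genes met a fold rule for being lower in the mutant, and others did not meet it or could not be read. SSC1, MDJ1, HSP78 and HSP10 were lower in the mutant, by 3.42-fold, 8.35-fold, 4.06-fold and at least 6.43-fold. After adjustment over all genes 0 of 10 members passed limma at 0.05, and 12.8% of all 6051 genes and unnamed spots met that rule downward. MGE1 and JAC1, which act with the matrix Hsp70s, were measured in both strains and did not meet the same rule, which is given below. The other 4 members, ECM10, SSQ1, ZIM17 and HSP60, were above background on at most 1 array each, so their spots cannot show a difference.

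The values are spot intensities in arbitrary units, normalized here to the same distribution on each array, so levels are compared between strains and not between genes. A spot was taken as above background when its deposited value exceeded 3 times the noise SD of its array, a limit of 8.39 and 11.7 on mutant replicates 1 and 2 and of 8.95 and 15.6 on wild-type replicates 1 and 2. Median deposited intensities were 11.9 and 8.49 on the mutant arrays and 6.28 and 5.86 on the wild-type arrays. Of the 10 members, 7 and 5 were above background on mutant replicates 1 and 2, and 6 and 5 on wild-type replicates 1 and 2. A gene met the fold rule downward when its mean log2 level was lower by at least 2-fold and both mutant arrays lay below both wild-type arrays. Where both arrays of a strain were below the limit, the level there has only an upper bound, and the fold is given as "at least".

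The spot of HSF1 itself (YGL073W) had normalized intensities of 625 and 540 in mutant replicates 1 and 2, against 37.1 and 0 in wild-type replicates 1 and 2. Its log2 difference of 6.52 (SE 1.98) was the highest of the 6051, with limma's adjusted p at 0.381. Both mutant arrays thus lay far above both wild-type arrays, 1 of which was not above background. An allele that differs by 2 amino acids is not checked by this spot. The altered protein and the higher HSF1 signal come with the same strain, so their parts in the differences below cannot be told apart.

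**Figure D1:**
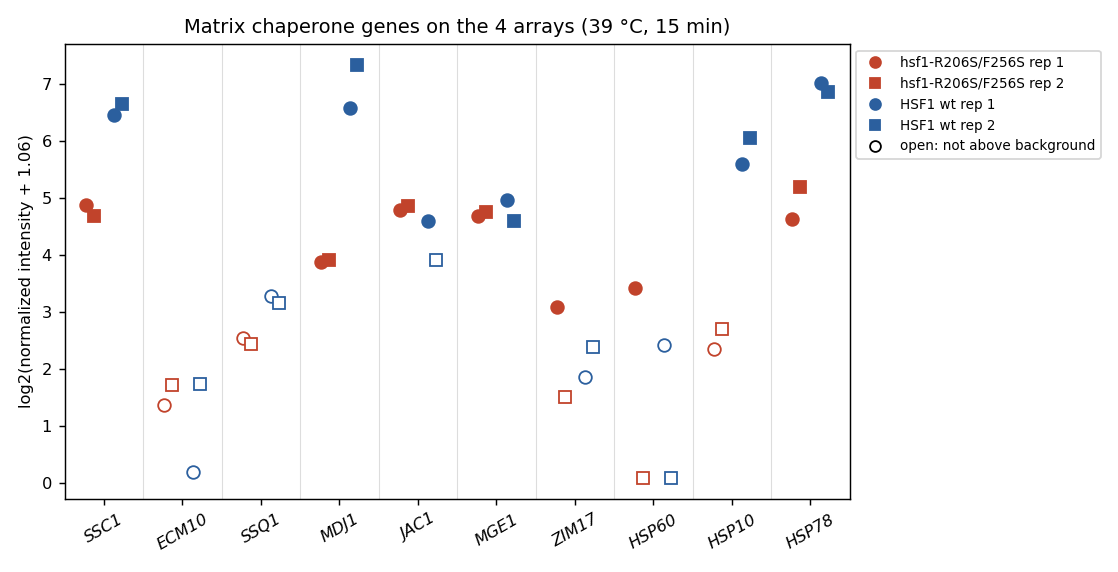
Level of each matrix chaperone gene on each array, as log2 of the normalized intensity plus an offset of 1.06, with hsf1-R206S/F256S in red to the left of HSF1 wt in blue and open symbols where the spot was not above background. SSC1, MDJ1, HSP10 and HSP78 have both red points below both blue ones by a wide gap, the points of MGE1 overlap, and ECM10, SSQ1, ZIM17 and HSP60 have mostly open symbols.

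SSC1 (YJR045C), the essential Hsp70 of the matrix and the ATP-driven part of the import motor, had normalized intensities of 28.2 and 24.6 in the mutant, against 86.9 and 99.0 in the wild type. The 4 arrays were above background and the strains did not overlap. The mean was 26.4 ± 2.55 in the mutant and 92.9 ± 8.59 in the wild type (SD, n = 2 each), a log2 difference of -1.77 (SE 0.38). The 95% interval of that difference ran from -2.87 to -0.68, and limma's adjusted p over all genes was 0.305. Of 2220 genes called bright, whose mean level over the 4 arrays lay above the mean background limit, SSC1 had the rank 81 from the lowest difference.

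ECM10 (YEL030W) is a close paralog of SSC1 and also encodes a matrix Hsp70. Its deposited values were 3.81 and 2.56 in the mutant and -0.241 and 0.381 in the wild type, below the limit on each array. These spots give no level and no difference for ECM10. The probes of the paralogs are not described in the sources used here. The ECM10 spot stayed below background on the same wild-type arrays on which SSC1 read 82.6 and 95.9 as deposited.

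SSQ1 (YLR369W), the Hsp70 specialised for iron-sulfur cluster biogenesis, was not above background on any array either. Its normalized intensities were 4.78 and 4.34 in the mutant and 8.67 and 7.86 in the wild type. Both mutant values were below both wild-type ones, but the log2 difference of -0.73 (SE 0.37) did not reach 2-fold and all 4 readings are within background. With the values as deposited it was -0.05, or -0.68 relative to the median of all genes, against -0.74 on that scale with quantile normalization.

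Among the J-proteins, MDJ1 (YFL016C) encodes the main Hsp40 of the matrix, which hands unfolded proteins to Ssc1. It had 13.6 and 13.9 in the mutant, against 93.9 and 160 in the wild type. The mutant arrays were close to each other and far below the wild-type ones, which themselves differed more. The mean was 13.7 ± 0.235 in the mutant and 127 ± 46.7 in the wild type (SD, n = 2 each), and the log2 difference was -3.06 (SE 0.46), with an interval from -4.41 to -1.71. Limma's adjusted p was 0.277, and MDJ1 had the rank 22 among the bright genes. An offset 10 times as large took the difference to -2.46, since the offset then nears the mutant's level.

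JAC1 (YGL018C) encodes the J-protein that works with Ssq1 on the scaffold for iron-sulfur clusters. Its intensities were 26.6 and 27.9 in the mutant, against 23.2 and 14.05 in the wild type. The strains did not overlap, but wild-type replicate 2 was not above background. The log2 difference was 0.56 (SE 0.44), with an interval from -0.74 to 1.86 and an adjusted p of 0.689 in limma. It was above 0 under each of 14 alternative settings, from 0.22 without wild-type replicate 2 to 1.14 with the values as deposited. The replicate block, the variance trend, the filters on dim genes and leaving out negative values keep it at 0.56. Those settings therefore could not change its sign. The median of all genes was 0.63 in the as-deposited setting and 0.01 with quantile normalization. There JAC1 met the fold rule upward, at 0.51 relative to that median.

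MGE1 (YOR232W), the nucleotide exchange factor that releases ADP from Ssc1, had 24.7 and 26.0 in the mutant, against 29.9 and 23.0 in the wild type. The strains overlapped on 4 arrays that were all above background. The mean was 25.4 ± 0.908 in the mutant and 26.4 ± 4.92 in the wild type (SD, n = 2 each). The log2 difference was -0.05 (SE 0.39), with an interval from -1.18 to 1.09, and it was 0.14 without wild-type replicate 1. As deposited it was 0.51, but relative to the median of all genes it was -0.12 there and -0.06 with quantile normalization. This interval does not reach the estimate of SSC1, its Hsp70 partner, but it overlaps the interval of SSC1, from -2.87 to -0.68.

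ZIM17 (YNL310C) encodes a zinc finger protein that keeps Ssc1 and Ssq1 from aggregating. Its deposited values were 11.0 and 2.12 in the mutant and 1.75 and 2.25 in the wild type. Mutant replicate 1 was the 1 array above background, and the log2 difference of 0.19 (SE 0.72) turned with the array left out, from -0.79 without mutant replicate 1 to 0.99 without mutant replicate 2.

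HSP60 (YLR259C) encodes the chaperonin ring. Its deposited values were 13.9 and -7.67 in the mutant and 3.23 and -11.9 in the wild type. The second array of each strain read below 0, and mutant replicate 1 was the 1 array above its limit. The log2 difference of 0.50 had an SE of 1.57 and ran from -1.13 without mutant replicate 1 to 2.17 without mutant replicate 2. The spot thus gave no usable level for HSP60 in either strain.

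HSP10 (YOR020C), the co-chaperonin that caps the Hsp60 ring, was read clearly in the wild type. It had 4.04 and 5.47 in the mutant, against 47.0 and 65.1 in the wild type. Neither mutant array was above background, while both wild-type arrays were. The measured means were 4.75 ± 1.01 in the mutant and 56.0 ± 12.8 in the wild type (SD, n = 2 each). HSP10 was at least 6.43-fold lower, and limma's adjusted p was 0.277. The fitted log2 difference of -3.29 (SE 0.42) depends on the offset and was -2.11 with the offset 10 times as large. Whether HSP10 or MDJ1 differed more is therefore not settled, and the chaperonin pair cannot be compared because of the HSP60 spot.

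HSP78 (YDR258C), the matrix relative of the disaggregase Hsp104, had 23.8 and 35.2 in the mutant, against 127 and 115 in the wild type. Each array was above background and the strains did not overlap. The mean was 29.5 ± 8.07 in the mutant and 121 ± 8.73 in the wild type (SD, n = 2 each). The log2 difference was -2.02 (SE 0.42), with an interval from -3.25 to -0.79 and an adjusted p of 0.305 in limma, at rank 60 among the bright genes.

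**Figure D2:**
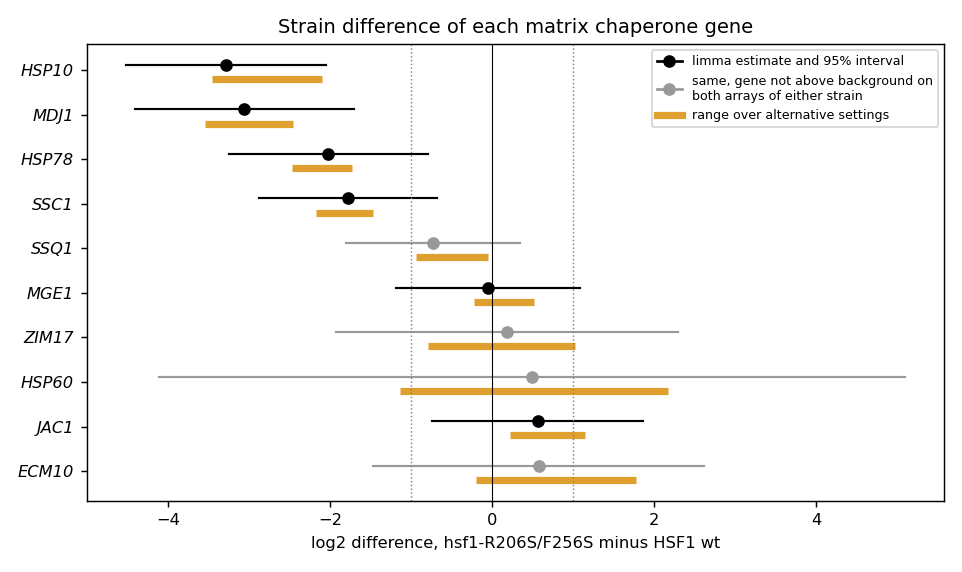
Log2 difference of each matrix chaperone gene, hsf1-R206S/F256S minus HSF1 wt, with limma's 95% interval (black, or grey where neither strain had both of its arrays above background) and the range over the alternative settings (orange), with dotted lines at a 2-fold difference. The orange ranges of HSP10, MDJ1, HSP78 and SSC1 lie wholly below the 2-fold line, from -3.55 to -1.47 in all, while those of MGE1, ZIM17, HSP60 and ECM10 span 0.

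Of the 10 members, 4 met the fold rule downward and 0 upward, beside 12.8% of all 6051 genes and unnamed spots that met it downward and 13.5% upward. The median log2 difference of the 10 was -0.39, against 0.01 over all genes tested. Leaving out mutant replicate 1 gave -1.0, leaving out wild-type replicate 2 gave -0.73, and the values as deposited gave 0.23. Relative to the median of all genes, it was -0.40 both as deposited and with quantile normalization. That median lies between a member that was within background, SSQ1, and MGE1, so it stands for neither the lower genes nor the rest. After adjustment over all genes 0 of 10 members passed limma at 0.05, as did 0 of 6051 genes (0%). At an unadjusted p under 0.05, 4 members and 710 genes passed (11.7%), and the 4 members were those lower by the fold rule. With 2 arrays per strain an exact permutation test of a gene cannot go below 0.33, two-sided. The same 4 members met the fold rule downward under each of the 14 alternative settings. The replicate block, the variance trend, the filters on dim genes and leaving out negative values do not move their differences. Those settings therefore could not change this outcome.

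**Figure D3:**
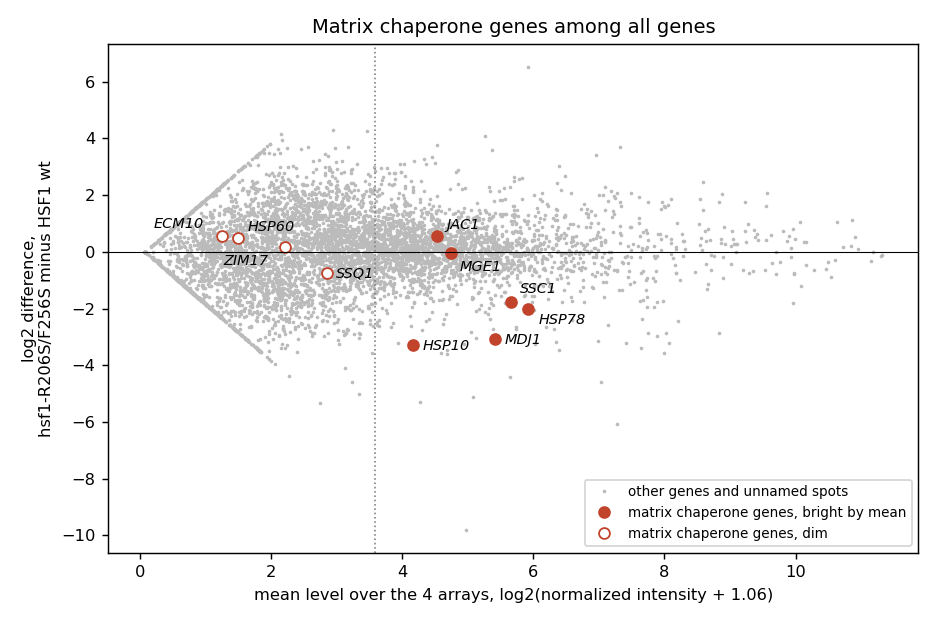
Log2 difference, hsf1-R206S/F256S minus HSF1 wt, against the mean level over the 4 arrays for all 6051 genes and unnamed spots (grey) and the matrix chaperone genes (red, open where dim), with a dotted line at the mean background limit. To the right of that line HSP10, MDJ1, HSP78 and SSC1 lie in the lower part of the cloud and MGE1 and JAC1 in its middle. The dim members lie to the left of the line, where the differences of all genes spread widely.

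The difference between partners was also read as a change of their ratio within each array. A common factor between arrays does not move such a ratio, apart from the offset. Quantile normalization does not act as a common factor, so the ratios still depend on the normalization. SSC1 relative to MGE1 changed by -1.73 on the log2 scale, 3.31-fold lower in the mutant. SDs between replicates were 0.183 in the mutant and 0.392 in the wild type. Alternative settings gave values from -1.99 with median scaling to -1.37 without wild-type replicate 2. MDJ1 relative to MGE1 changed by -3.02, 8.09-fold lower, and by -2.35 when wild-type replicate 2 was left out. SSC1 relative to MDJ1 changed by 1.29, with MDJ1 lower by a further 2.44-fold than SSC1, and the strains did not overlap. Over the alternative settings that change ran from 0.97 to 1.53. SSC1 relative to HSP78 changed by 0.25, and here the strains overlapped, with SDs of 0.520 in the mutant and 0.235 in the wild type, and the sign turned without mutant replicate 1 (-0.14). JAC1 relative to MGE1 changed by 0.61, or 1.53-fold higher, without overlap. These ratios reuse the values above, and no p was computed for them. The pairs named are some of the 10 among 5 bright members above background on at least 1 array of each strain. Of those 10 pairs 9 did not overlap, so a lack of overlap sets no pair apart.

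The genes next to the members on the chromosome were read as well. Each member was paired with its neighbour on either side in the gene order of the R64 assembly of strain S288C, and 18 of 20 such neighbours had a spot. Of these, SPF1, beside ECM10, was the 1 that met the fold rule (downward), and it was not above background on any array. SSC1, MDJ1, HSP10 and HSP78 have 8 neighbours, 6 with a spot, and 0 of those 6 met the fold rule, beside 12.8% of all genes downward and 13.5% upward, so a count of 0 among so few sets them apart from no other genes. Their log2 differences ran from -0.98 for RKM4 (SE 0.75), downstream of HSP78, to 0.34 for YAP6 (SE 0.69), upstream of HSP78. VPS55, which lies downstream of SSC1, averaged 112 in the mutant and 92.7 in the wild type. TAH11, which is transcribed away from the start of SSC1, differed by -0.49 (SE 1.97) and was above background on 1 array of each strain.

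The genes that deliver, process and assemble matrix proteins held few members read above background. In the presequence translocase and import motor, the channel and motor through which precursors reach Ssc1, 4 of 9 genes had a lower mean and the median log2 difference was 0.55. PAM18, a J-protein of the motor, met the fold rule downward and TIM44, which tethers Ssc1 to the channel, upward, but neither was above background on any array. PAM17, a motor assembly factor measured on each array, averaged 114 in the mutant and 73.9 in the wild type, a log2 difference of 0.66 (SE 0.58). In the list of proteases and presequence processing the median was -0.06. YTA12, a subunit of the m-AAA protease, and YME1, the i-AAA protease, met the fold rule downward and ICP55, an aminopeptidase, upward. YTA12 was above background on 1 wild-type array and on no mutant array. Its wild-type mean thus includes a reading within background, so YTA12 and the others allow no fold. MAS1, a subunit of the presequence peptidase, differed by -0.10 (SE 0.38).

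The iron-sulfur cluster genes are the pathway of SSQ1 and JAC1. Of 15 genes listed 13 had a spot, with a median log2 difference of 0.10. Of these, 2 met the fold rule downward and 3 upward, beside 12.8% and 13.5% of all genes, so the downward count is near that share. ISU1, the scaffold on which Jac1 and Ssq1 act, averaged 12.8 ± 1.93 in the mutant and 4.75 ± 1.19 in the wild type (SD, n = 2 each), with both mutant arrays and no wild-type array above background. The wild-type limit was too high to give a fold for ISU1. NFU1, which acts late in cluster delivery, was at least 1.54-fold higher. ISA1, another late factor, had 39.9 and 12.5 in the mutant, against 11.7 and 6.24 in the wild type. For ISA1 mutant replicate 2 was close to wild-type replicate 1, and wild-type replicate 2 was not above background. The genes past the rule downward were ARH1, the reductase that supplies electrons, and the exporter ATM1, within background. ARH1 averaged 12.02 in the mutant and 25.0 in the wild type, and its mutant replicate 2 was not above background. GRX5, the glutaredoxin that receives clusters with the help of Ssq1, differed by -0.14 (SE 0.40).

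Among 6 other folding factors of the matrix and inner membrane, MDJ2, a J-protein of the inner membrane, met the fold rule downward within background. PHB2, a prohibitin, met it upward with 1 mutant array above background, and its partner PHB1 differed by -0.37 (SE 0.42). Of the same families outside the matrix, the list held Hsp70 and J-protein genes of the cytosol and KAR2, the Hsp70 of the endoplasmic reticulum. KAR2 differed by -0.77 (SE 0.44), but its difference depended on the normalization. It was -2.09 with median scaling, -1.36 as deposited and -0.77 with cyclic loess, where SSC1 was -2.18, -1.47 and -1.81. In that list 6 of 9 met the fold rule downward, the Hsp70 genes SSA1, SSA2, SSA3 and SSA4 and the J-protein genes YDJ1 and SIS1. Another 2, the ribosome-bound Hsp70 genes SSB1 and SSB2, met it upward. Beside them stand 12.8% of all genes downward and 13.5% upward. SSA3, not above background in the mutant, was at least 6.53-fold lower, and SSB2, not above background in the wild type, at least 1.70-fold higher. The median log2 difference was -2.01, and YDJ1 and SIS1, at -2.01 (SE 0.46) and -1.72 (SE 0.48), lay close to SSC1. The cytosolic chaperonin, which folds actin and tubulin without an Hsp10 lid, had a median of 0.33 over 8 genes. Its CCT8, above background on 1 array of each strain, met the rule downward. CCT3, not above background on any array, and CCT7, at least 1.17-fold higher, met it upward. CCT2 and CCT4, read on each array, differed by 0.26 (SE 0.40) and 0.40 (SE 0.42). With the values as deposited, where 5.59% of all genes met the rule downward, 1 protease gene met it and 0 genes did in the translocase, iron-sulfur, other folding and chaperonin lists. Among the Hsp70 and J-protein genes outside the matrix 7 met it there, KAR2 being the added one. Upward as deposited, 28.1% of all genes met the rule, with their median at 0.63. In that setting 4 translocase, 4 protease, 3 iron-sulfur, 3 other folding and 2 chaperonin genes met it upward. So did 2 Hsp70 and J-protein genes outside the matrix.

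**Figure D4:**
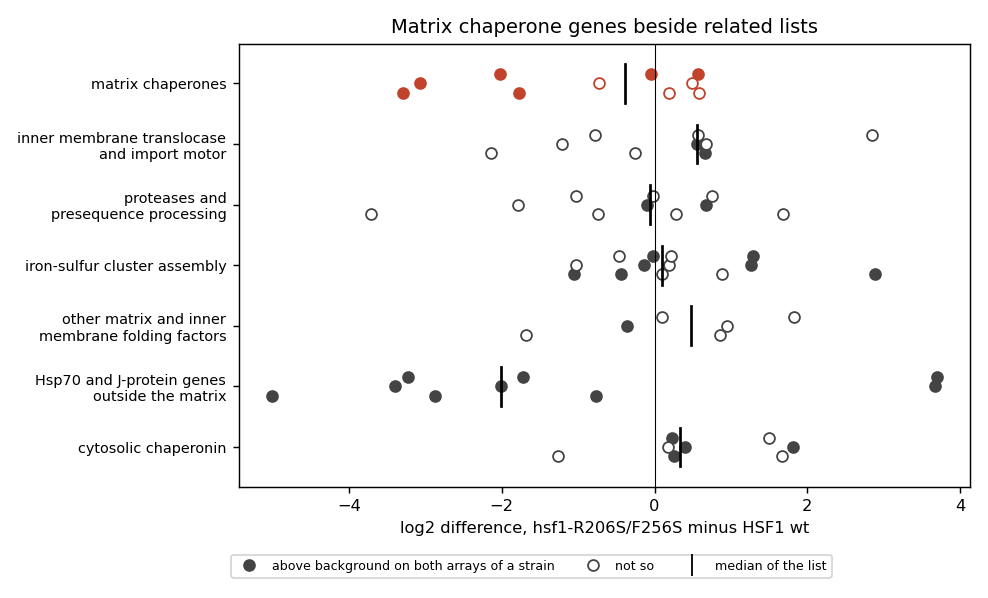
Log2 differences, hsf1-R206S/F256S minus HSF1 wt, of the matrix chaperone genes (red) and of 6 related gene lists (grey), with filled points for genes whose arrays were both above background in at least 1 strain and a bar at each list's median. A filled point can owe its place to the strain where the gene is high, and the point of HSP10, like that of NFU1 in the iron-sulfur list, is set against a strain that was not above background.

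The genes closest to SSC1 in their profile over the 4 arrays were taken by Euclidean distance between log2 levels, each centred on its own mean, among 2505 other genes with both arrays of at least 1 strain above background. They were CTT1, the cytosolic catalase, at a distance of 0.158, ALD4, a mitochondrial aldehyde dehydrogenase, at 0.227, and POR1, the porin of the outer membrane, at 0.280. TYE7, a regulator of glycolytic genes, and ZEO1, a protein of the cell periphery, followed at 0.281 and 0.285. Their log2 differences, from -1.51 for POR1 to -2.05 for ZEO1, lie near that of SSC1 because the distance was taken over the same arrays. ALD4 averaged 32.8 in the mutant and 98.1 in the wild type, and POR1 33.7 and 98.3. Within the members HSP78 was nearest to SSC1, at 0.622. This likeness rests on 4 arrays in 2 strains.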

How the data were processed

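The deposited values are linear spot intensity values, 1 per spot and array, for 6084 spots on 4 arrays. Per the labels, total RNA was copied from an oligo(dT) primer into cDNA marked with 33P, and each array holds 1 sample. How the authors subtracted background and scaled the arrays is not stated in the sources used here. The deposited values hold negative numbers on every array and the array means agree, while the medians do not. The arrays were quantile-normalized (limma 3.58.1, R 4.3.3), negative values were replaced by 0, and log2 was taken after adding 1.06, which is the 5th percentile of positive values. Spots of 1 gene were averaged. GEO's platform annotation gave 1 symbol for 5523 spots, none for 561 and several for 0, and 5523 matched the R64 gene table.

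Differences are mutant minus wild type, tested with limma (lmFit and eBayes, two-sided, 2 residual and 1.54 prior degrees of freedom, Benjamini-Hochberg over 6051). The script was tested on simulated data. The noise SD came from the negative values of each array. Alternatives covered normalization, offset, negative values, dim genes, each array left out, variance trend and a replicate block. Same-numbered arrays did not deviate together (r = 0.02 across genes). The genes named are the 10 members, HSF1, genes of the 6 related lists past the fold rule, and the 5 nearest to SSC1. Members and lists were chosen with earlier results of these data known. PAM17, MAS1, GRX5, PHB1, KAR2, CCT2, CCT4 and the chromosomal neighbours were chosen after their values were seen. No sequences or coordinates are printed, because the probes are not described. The number of arrays limits the precision.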

Additional observations from a re-analysis of the deposited data

How the results depend on the processing

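The count of 4 members past the fold rule downward was 4 under each of 14 alternatives, while the share of all genes that met it ran from 3.12% with the offset 10 times as large to 23.0% without wild-type replicate 1. For these 4 members the replicate block, the variance trend, the filters on dim genes and leaving out negative values could not change the outcome. ECM10, within background, met the rule upward with median scaling, cyclic loess and as deposited, as did JAC1 as deposited and HSP60 without mutant replicate 2. The count of members past limma's threshold was 0 except among the bright genes alone, where HSP10 passed (-3.29, adjusted p 0.0415, range 0.0415 to 0.584). HSP10 entered that set through its wild-type arrays, and its difference is set against mutant arrays that were not above background. This pass therefore adds no separate support. Among the bright genes the count over all genes was 12. That count was 1 with the variance trend, 1 among genes above background on both arrays of a strain and 0 elsewhere. With the replicate block the counts were 0 genes and 0 members, and the median of the members was -0.39. The median was 0.23 as deposited, or -0.40 relative to the median of all genes there (0.63), and -1.90 with either filter on dim genes, which leave 6 members. Leaving out 1 array at a time gave -1.0 to -0.38. Some differences turned sign. MGE1 was 0.51 as deposited. Without 1 array at a time MGE1 ran from -0.23 to 0.14, ECM10 from -0.19 to 0.85, ZIM17 from -0.79 to 0.99 and HSP60 from -1.13 to 2.17. Apart from the dim-gene filters, which leave out 4 members, and the shift of all genes as deposited, the cause was not tested. Signal over background limits ECM10, SSQ1, ZIM17 and HSP60 on nearly all arrays and HSP10 in the mutant.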
